A study of Rattus norvegicus with 24 samples.

Results

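Gfap, Vim, Nes, Cd44 and Cd24 were followed across the retinas of male Sprague Dawley rats, an outbred strain, given streptozotocin (STZ), a toxin of pancreatic beta cells, or its citrate vehicle alone. Retinas were taken 1 month (1M) or 3 months (3M) later, with 6 arrays per group, named 1M Control, 1M STZ, 3M Control and 3M STZ, and each array is treated as 1 rat. The study's account of its animals lists fewer control rats at 1M than there are arrays labelled 1M Control, and which is right is not settled in the sources used here. The ages of the rats are not given in the sources used here. No insulin was given, and the STZ rats had been selected for high blood glucose. The arrays were CodeLink rat whole genome arrays, which measure 1 colour of fluorescence. Genes were found through the RefSeq accession given for each probe. A probe was found for 4 of the 5 genes, 1 each for Gfap (GE1283392), Vim (GE22154), Cd44 (GE21378) and Cd24 (GE19943), among 4675 probes named in this way and 33849 rat probes in all. No named probe was found for Nes, and it was not analysed here. All 4 probes passed the filter on dim probes, which 22025 probes passed. Gfap lay close to its limit at 1M, where group medians were 0.604 and 0.664 against a limit of 0.554. Every 1M level of Gfap also lay below 1.14, the 95th percentile of the bacterial probes, a measure of background, so that differences from or among these levels are poorly measured.

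Gfap, vimentin (Vim) and nestin (Nes) are intermediate filament proteins of glia. In the healthy rat retina Gfap is made chiefly by astrocytes of the nerve fibre layer, whereas Mueller glia, which span the retina, carry vimentin and gain Gfap when the retina is injured, a response known as reactive gliosis. Cd44 is a surface receptor for hyaluronan present on Mueller glia and on leukocytes, and Cd24 is a small, heavily glycosylated surface protein of immature neurons, epithelia and leukocytes.

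The sequence before the start of the 2 filament genes with a probe is shown because both were higher in STZ retinas at 3M, so that a reader may compare them. Each line holds 250 bases upstream of the RefSeq start in the rat build GRCr8, read 5′ to 3′ on the gene's strand, for Gfap at chr10:88361662-88361911 (minus strand) and for Vim at chr17:81577011-81577260 (plus strand). Capitals mark matches on either strand to the GC box (GGGCGG), to the TATA box (with letters TATAAA) or to the CCAAT box.
Gfap: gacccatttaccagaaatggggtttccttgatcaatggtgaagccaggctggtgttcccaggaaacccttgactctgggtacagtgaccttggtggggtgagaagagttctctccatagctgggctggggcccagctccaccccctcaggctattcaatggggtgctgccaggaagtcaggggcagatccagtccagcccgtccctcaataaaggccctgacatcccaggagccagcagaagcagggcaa
Vim: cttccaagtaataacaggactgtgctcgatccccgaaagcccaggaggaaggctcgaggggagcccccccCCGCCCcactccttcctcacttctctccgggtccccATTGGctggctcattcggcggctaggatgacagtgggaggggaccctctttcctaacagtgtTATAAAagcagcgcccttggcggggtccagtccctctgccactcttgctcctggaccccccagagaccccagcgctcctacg
The Vim sequence held 1 match to each of these motifs and the Gfap sequence held none. In 33465 rat promoter windows of this length, a GC box was found in 30.5%, a TATA box in 12.9% and a CCAAT box in 34.02%. Neither a STAT motif (TTCNNNGAA, found in 7.67% of windows) nor an AP-1 motif (TGANTCA, in 6.34%) was found in the window of any of the 5 genes, nor did the motifs searched overlap in the sequences shown. G and C made up 57.6% of the Gfap window and 62.4% of the Vim window, against a median of 51.2%. The windows of Nes, Cd44 and Cd24 lay inside the annotated span of their genes and are not printed. In Cd24, where G and C made up 75.6%, there were 3 matches to the GC box.

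Levels are given as scaled intensity, the background-subtracted intensity of a probe divided by the median of the rat probes on the same array, so that 1 is the level of the middle probe. A level says nothing about how one gene compares with another, because probes differ in brightness. The retina was evident in its markers, with the rod genes Sag and Rcvrn and the Mueller glia gene Glul above the 98th percentile of their arrays in the median of every group. One array stood apart: 3M Control 2 had a median correlation of 0.802 with the other arrays of its group over all tested probes, against 0.91 or more for each of the other 23 arrays with its own group. The middle spread of log2 intensities (interquartile range) was 3.36 to 3.67 at 1M, 1.48 to 2.23 in 3M Control and 2.07 to 2.70 in 3M STZ. Time since injection, age and anything that differed between the arrays of 1M and 3M cannot be told apart.

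At 1 month, no difference between STZ and control retinas passed the test in any of the 4 genes. Gfap ranged from 0.402 to 0.758 in 1M Control (median 0.604) and from 0.313 to 1.03 in 1M STZ (median 0.664). Vim ranged from 39.3 to 68.1 (median 49.3) and from 35.1 to 79.5 (median 48.6), respectively. For both filament genes the controls lay within the range of the STZ rats. Cd44 ranged from 1.40 to 1.98 in 1M Control (median 1.51) and from 0.860 to 2.49 in 1M STZ (median 1.05). Of the 6 STZ rats, 4 lay below every control. Those 4 levels (0.860 to 1.09) also lay under the bacterial limit of 1.14. Cd24 ranged from 4.05 to 10.2 (median 6.18) in 1M Control and from 0.394 to 14.8 (median 3.48) in 1M STZ. By limma, 0 of the 4 genes were called at an adjusted p under 0.05 and 1.2-fold, against 0.00908% of tested probes, and 0 of the 4 had an unadjusted p under 0.05 by limma or by the methods' test of unequal variances. The log2 differences, STZ minus control, were 0.14 for Gfap (95% interval -0.42 to 0.70), 0.04 for Vim (-0.43 to 0.52), -0.34 for Cd44 (-0.83 to 0.15) and -0.94 for Cd24 (-2.03 to 0.16), and the adjusted p was 1.0 for each. The intervals leave room for more than a 1.2-fold difference in every one of these genes.

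Cd44 and Cd24 were more widely spread among the STZ rats than among the controls at 1M. The SD of log2 level was 0.22 in 1M Control and 0.64 in 1M STZ for Cd44, and 0.48 and 1.73 for Cd24, where the median over all tested probes was 0.25 and 0.24. This difference in spread was not tested, and the lowest levels of both genes in 1M STZ lay under the bacterial limit of 1.14. A pair of rats set the ends: 1M STZ 2 had the highest Cd24 (14.8) and Cd44 (2.49) of its group and the lowest Gfap (0.313), and 1M STZ 4 had the lowest Cd24 (0.394) and Vim (35.1). Without 1M STZ 2, the difference in Cd24 was -1.37, and without 1M STZ 4 it was -0.33.

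**Figure D1:**
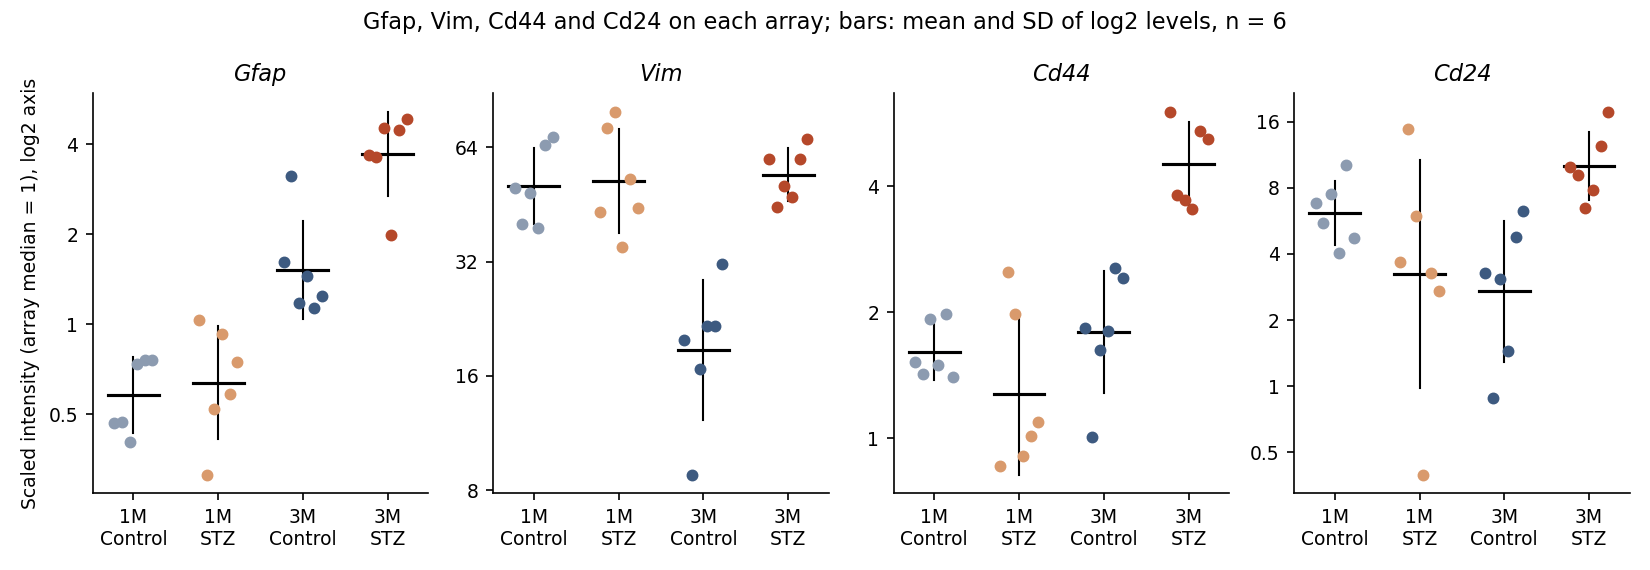
Scaled intensity of Gfap, Vim, Cd44 and Cd24 on each of the 24 arrays (points, log2 axis, array median = 1), with the mean and SD of log2 levels as bars (n = 6 arrays per group). At 3M all STZ points of Vim, Cd44 and Cd24 lie above the control points, and for Gfap 3M STZ 4 (1.99) lies below 3M Control 2 (3.13).

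At 3 months all 4 genes were higher in STZ than in control retinas. Gfap rose 2.44-fold, Vim 2.90-fold, Cd44 2.52-fold and Cd24 3.72-fold. All 4 were called higher by limma, where 50.5% of the tested probes were also called higher and the median tested probe was higher by 0.44 on the log2 scale, so a call alone does not set these genes apart. Their sizes stood near the top of that broad rise. Only 1.26% of tested probes had a larger log2 difference than Gfap, 0.540% than Vim, 1.09% than Cd44 and 0.213% than Cd24.

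Gfap ranged from 1.13 to 3.13 in 3M Control (median 1.35) and from 1.99 to 4.84 in 3M STZ (median 4.07). The groups overlapped through 1 rat on each side. In 3M Control 2 Gfap was 3.13 while the other 5 controls lay at or below 1.62, and in 3M STZ 4 it was 1.99 while the other 5 STZ retinas lay at or above 3.62. The log2 difference was 1.29 ± 0.27 (SE, n = 6 per group, limma adjusted p = 0.000894). Leaving out 3M Control 2 gave 1.498.

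Vim, the filament of the resting Mueller cell, ranged from 8.78 to 31.6 in 3M Control (median 20.8) and from 44.6 to 67.2 in 3M STZ (median 55.2). Every STZ retina lay above every control, and 3M Control 2 was the lowest of all 24 arrays. The log2 difference was 1.53 ± 0.23 (limma adjusted p = 8.74e-05), and 1.32 without 3M Control 2.

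Cd44, the hyaluronan receptor, ranged from 1.01 to 2.55 in 3M Control (median 1.82) and from 3.53 to 6.03 in 3M STZ (median 4.50), again without overlap. Its log2 difference was 1.33 ± 0.24 (limma adjusted p = 0.000296), and 1.17 without 3M Control 2.

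Cd24 ranged from 0.883 to 6.27 in 3M Control (median 3.17) and from 6.49 to 17.8 in 3M STZ (median 9.59). The groups did not overlap, but the gap was small, between 3M Control 6 (6.27) and 3M STZ 3 (6.49). The estimate was the largest of the 4 genes and the least precise, at 1.90 ± 0.54 on the log2 scale (limma adjusted p = 0.00595), and it was 1.57 without 3M Control 2 (adjusted p = 0.0240). Cd24 was not called by the methods' test once that test was adjusted over all tested probes.

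In all, 3 of the 4 genes had every 3M STZ array above every 3M Control array, as did 9.49% of tested probes. At 1M it was 0 of the 4 genes and 0.336% of probes. With quantile normalization, which gives every array the same distribution, or after each array's 5th percentile was subtracted, Cd24 overlapped at 3M and 2 of the 4 genes remained apart, with 6.86% and 8.15% of probes, respectively.

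**Figure D2:**
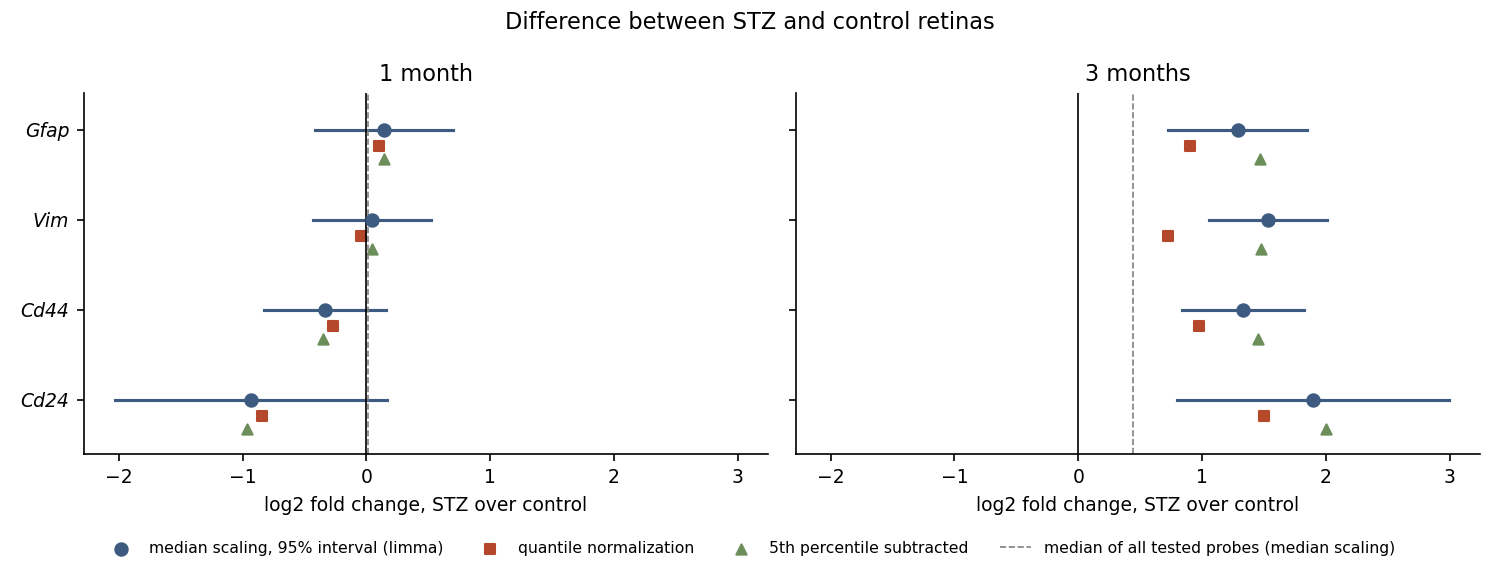
Log2 fold change of STZ over control at 1 month and 3 months (n = 6 per group), as estimate and 95% interval from limma after median scaling (circles), with quantile normalization (squares) and after each array's 5th percentile was subtracted (triangles). The dashed line is the median of all tested probes, 0.01 at 1 month and 0.44 at 3 months; all 4 intervals lie above it at 3 months and all 4 cover it at 1 month.

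The size of each change at 3M depended on the scaling. With quantile normalization the median difference over all tested probes fell from 0.44 to 0.16. The log2 differences were 0.90 for Gfap, 0.73 for Vim, 0.98 for Cd44 and 1.501 for Cd24. Each was still called by limma (adjusted p = 0.0162, 0.0056, 0.0027 and 0.0329), where 5424 of 22025 tested probes were called higher. With array spread as a covariate, the ranges of which overlapped little between the 3M groups, the estimates were 1.00, 1.204, 1.00 and 0.96 and none was called (adjusted p from 0.464 to 0.722). The percentile rank of a probe within its own array does not depend on the scaling. The mean rank rose from 65.3 to 79.6 for Gfap (exact permutation test over 924 splits, two-sided p = 0.0303, and 0.0519 without any 1 of 6 of the 12 arrays), from 69.2 to 83.2 for Cd44 (p = 0.00216) and from 76.1 to 93.3 for Cd24 (p = 0.00649) between 3M Control and 3M STZ. Vim was among the brightest probes in every retina, and its rank rose from 99.15 to 99.69 (exact permutation p = 0.00216, the smallest that 6 against 6 arrays allow). At 1M the same exact tests gave p from 0.149 to 0.647, and these 8 tests were not adjusted. In whole retina, more cells of a type and more RNA per cell cannot be told apart.

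The change with STZ was larger at 3M than at 1M for all 4 genes by the test of the difference itself, which 14.8% of tested probes also passed in this direction. The difference between the effects, on the log2 scale, was 1.15 ± 0.39 for Gfap (SE, limma adjusted p = 0.0454), 1.49 ± 0.33 for Vim (adjusted p = 0.0156), 1.67 ± 0.34 for Cd44 (adjusted p = 0.0119) and 2.83 ± 0.76 for Cd24 (adjusted p = 0.0259). Gfap, whose 1M levels lay under the bacterial limit, was at the edge of the threshold. Its adjusted p exceeded 0.05 when any of 16 of the 24 arrays was left out (up to 0.0810) and with quantile normalization (0.200). It stayed under 0.05 without 1M Control 2 or 3, 1M STZ 1 or 4, 3M Control 2, 4 or 6, or 3M STZ 4. For Cd24 the adjusted p was 0.0503 without 3M STZ 6. The quantile values also lost the call for Vim (0.78, adjusted p = 0.0663) and left Cd44 and Cd24 called. With array spread as a covariate none of the 4 was called (adjusted p = 0.912 for each), and 0 of 22025 tested probes were.

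The levels in the controls themselves differed between 1M and 3M after median scaling. Between 1M Control and 3M Control, Gfap was higher at 3M by 1.39 ± 0.27 on the log2 scale (limma adjusted p = 7.32e-05), 1 of 4 genes called higher where 13.2% of tested probes were, though its size is uncertain because all 1M levels lay under the bacterial limit of 1.14. Vim fell by 1.44 (SE 0.23, adjusted p = 5.96e-06) and Cd24 fell by 1.19 (SE 0.54, adjusted p = 0.0497), 2 of 4 genes called lower where 55.6% of tested probes were and the median probe differed by -0.52. The call of Cd24 was at the threshold, and it held in 6 of the 24 fits with 1 array left out (without 1M Control 4, 1M STZ 2 or 4, 3M Control 5 or 6, or 3M STZ 1). Cd44 differed by 0.16 (95% interval -0.33 to 0.65, adjusted p = 0.566). Beside the 1M levels, then, Gfap in 3M STZ (1.99 to 4.84) lay above all 12 retinas of 1M (0.313 to 1.03). Cd44 in 3M STZ (3.53 to 6.03) likewise lay above all of them (0.860 to 2.49). By contrast, Vim in 3M STZ (44.6 to 67.2) lay within the 1M range (35.1 to 79.5), and it was the 3M Control retinas (8.78 to 31.6) that lay below it. With quantile normalization only 3M Control 2 and 4 (4.48 and 4.65 on the log2 scale) lay below the 1M range (4.76 to 6.18). There 3M Control 1, 3, 5 and 6 (4.82 to 4.97) lay within it. Since the spread of the arrays differed most between 1M and 3M, these comparisons were also made with quantile normalization, by which Gfap was still called higher (1.51, adjusted p = 5.53e-05) and Vim lower (-0.80, adjusted p = 0.000943), Cd24 was not called (-0.73, adjusted p = 0.241) and Cd44 was called higher (0.55, adjusted p = 0.0448). With array spread as a covariate none of the 4 genes was called, where 269 of 22025 tested probes were. Vim then differed by -0.55 and Cd24 turned to 1.31.

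Within each group the 4 genes were compared across the 6 rats, giving 24 correlations of log2 levels. By exact permutation 10 of the 24 had p under 0.05, but 0 passed after adjustment, the smallest adjusted p being 0.1, so that each is given as a description. Cd44, Vim and Cd24 tended to be high in the same retinas. Of their 3 pairs, Pearson's r ranged from 0.28 to 0.83 in 1M Control, from 0.74 to 0.90 in 1M STZ, from 0.81 to 0.93 in 3M Control and from 0.68 to 0.85 in 3M STZ. In 3M Control, however, the median correlation with all tested probes was also high, at 0.89 for Vim, 0.81 for Cd44 and 0.66 for Cd24, and without 3M Control 2 the 3 pairs gave 0.50 to 0.72.

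Gfap was negatively correlated with these genes in 1M STZ and 3M Control. In 1M STZ the Cd44 levels of rats 1, 4, 5 and 6 (0.860 to 1.09) and the Cd24 level of rat 4 (0.394) lay under the bacterial limit of 1.14. So did all 6 levels of Gfap (0.313 to 1.03), and its correlations in that group rest on intensities under that limit. In 1M STZ its correlation was -0.91 with Cd44 (exact permutation p = 0.00417, adjusted p = 0.1; Spearman's rank correlation -0.94, p = 0.0167, adjusted p = 0.267), -0.84 with Vim (p = 0.0375, adjusted p = 0.1; Spearman -0.89, p = 0.0333) and -0.75 with Cd24 (p = 0.103; Spearman -0.66, p = 0.175). Without the 2 arrays farthest from the median of Gfap these values of r were -0.76, -0.95 and -0.93, and with quantile normalization -0.91, -0.83 and -0.79. The median correlation of Gfap with all tested probes in 1M STZ was 0.06, and 99.6% of tested probes had a higher correlation with it than Cd44 had. In 3M Control the correlations of Gfap with the other three were -0.81 to -0.88, but the median over all tested probes was -0.70 there, and they rested on 3M Control 2. Without this rat r was -0.06 with Vim, -0.44 with Cd44 and -0.49 with Cd24. Its Cd44 (1.01) and Cd24 (0.883) also lay under the bacterial limit, as did Gfap in 3M Control 5 (1.13).

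In 3M STZ Gfap was positively correlated with the other genes, with r = 0.58 for Vim, 0.50 for Cd44 and 0.45 for Cd24 (exact permutation p from 0.228 to 0.374). Its median correlation with all tested probes was 0.54 in this group, and with quantile normalization they were 0.00, 0.05 and 0.11. In the same group the correlation of Vim with Cd44 was 0.85 after median scaling (exact permutation p = 0.0847) and -0.41 with quantile normalization. The difference in sign between the groups was not tested.

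**Figure D3:**
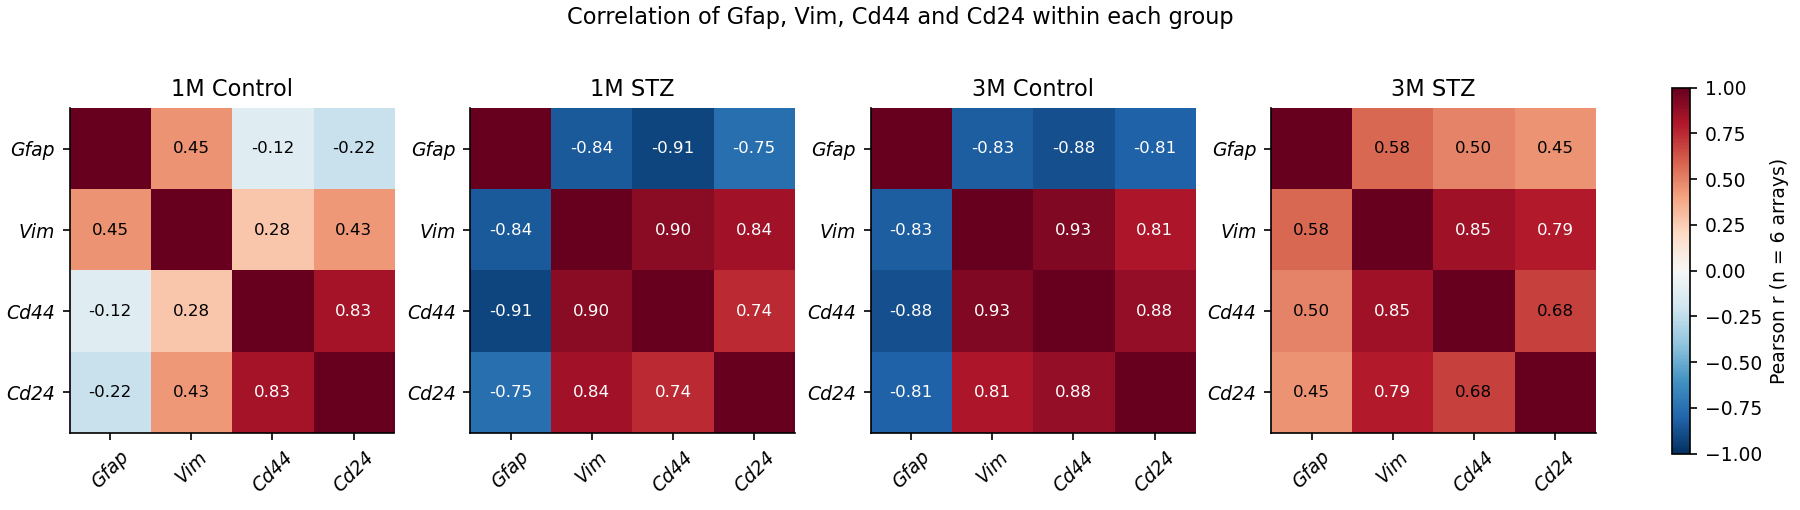
Pearson correlation of log2 levels between each pair of the 4 genes across the 6 arrays of each group (colour and printed value). Gfap is negatively correlated with the other genes in 1M STZ (-0.91 to -0.75) and 3M Control (-0.88 to -0.81) and positively in 3M STZ (0.45 to 0.58); 0 of the 24 correlations passed after adjustment.

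The genes with the most similar pattern were sought among 3141 named and tested probes, by correlation over the 24 arrays after the mean of each group was subtracted, so that neither STZ nor age entered. For Vim they were Drd3 (r = 0.93), Trhr (0.92) and Slc15a2 (0.92), beside a median of 0.41 over all these probes. For Cd44 they were S100a4 (0.82), Slc15a2 (0.81) and Vim (0.80), beside a median of 0.31. For Gfap, whose median was -0.14, they were Acaa1a (0.74), Spata2 (0.67) and Shbg (0.65), and its correlations with Vim, Cd44 and Cd24 were -0.44, -0.57 and -0.55. All these values include 3M Control 2, where Gfap (3.13) was the highest and Vim (8.78) the lowest of the group. Within 3M Control, r of Gfap with Vim was -0.83, and -0.06 without that rat. No value over all groups without that rat is given here. The values of Gfap also include its 1M levels, which lay under the bacterial limit.

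For Cd24 the most similar probes were Crybb1 (r = 0.97), Prx (0.95) and Cryba4 (0.93), beside a median of 0.23, and Crybb1 and Cryba4 encode crystallins, the abundant soluble proteins of the lens. In 1M STZ 2, where Cd24 was 14.8, Crybb1 was 73.6, and in 1M STZ 4, where Cd24 was 0.394, Crybb1 was 3.72. The other 4 rats of that group lay between them in both genes, at 2.71 to 5.95 for Cd24 and 18.7 to 28.1 for Crybb1. In 3M Control 2, the control with the lowest Cd24 (0.883), Crybb1 was 14.3, also the lowest of its group. Crybb1 was higher in 3M STZ than in 3M Control by 1.59 on the log2 scale (limma adjusted p = 0.00428) and differed by -1.05 at 1M (adjusted p = 1.0).

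Markers of the lens (Crygd, Cryba2, Lenep, Lgsn and Lim2) were higher as a sum in STZ retinas at 3M. The summed scaled intensity of these 5 probes was 64.7 to 115 in 3M Control and 140 to 333 in 3M STZ, without overlap. It was 76.2 to 197 in 1M Control (median 92.4) and 25.4 to 210 in 1M STZ (median 129). The median of Cd24 went the other way at 1M, from 6.18 in 1M Control to 3.48 in 1M STZ. At 3M limma called 4 of the 5 higher, where 50.5% of all tested probes were. The median log2 difference was 2.20, from 0.43 for Lim2 to 4.39 for Crygd. With quantile normalization 3 were called higher, where 5424 of 22025 tested probes were. Cryba2 was not among them (0.09, adjusted p = 0.87). It had the highest median of the 5 in 3M Control (78.9) and 3M STZ (157). None of the 5 probes was at 0, and the median of Crygd was 1.35 in 3M Control and 49.2 in 3M STZ. The part of lens RNA in the change of Cd24, or of the other genes, was not tested. For the 9 probes of microglia and leukocytes, cells that also carry Cd44 and Cd24, the sum was 7.69 to 12.3 in 3M Control and 9.62 to 12.2 in 3M STZ. Of the 6 genes tested 2 rose and 1 fell at 3M, where 50.5% of all tested probes rose and 781 of 22025 fell.

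**Figure D4:**
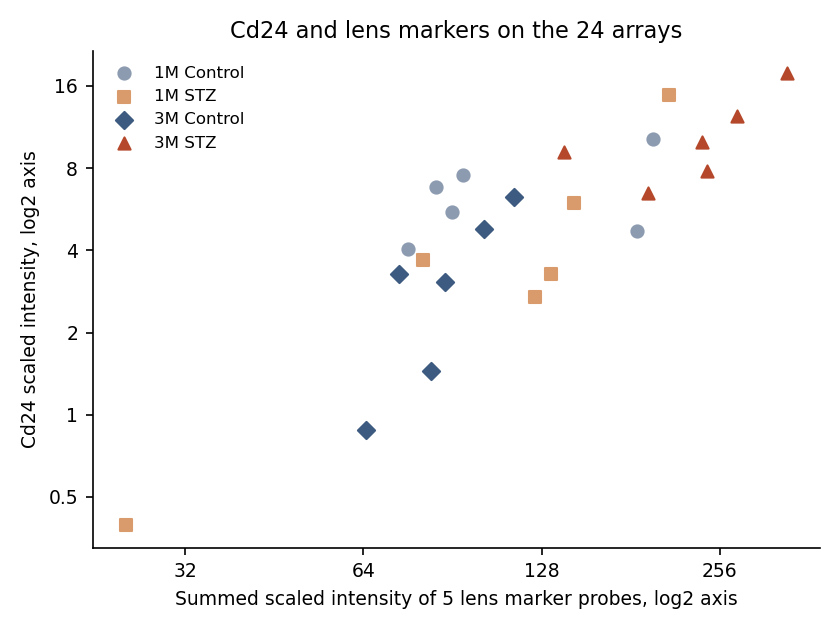
Scaled intensity of Cd24 against the summed scaled intensity of 5 lens marker probes on each of the 24 arrays (both log2 axes, symbols by group). The 1M STZ rat with the lowest lens sum (25.4) has the lowest Cd24 (0.394), and the 3M STZ rat with the highest lens sum (333) has the highest Cd24 (17.8). This order does not hold throughout. The lens sum is higher but Cd24 lower in 3M STZ 4 (243 and 7.82) than in 3M STZ 2 (140 and 9.18). The same is true of 1M Control 6 (185 and 4.73) beside 1M Control 3 (94.5 and 7.53).

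Genes that work with these 4 were described by lists. At 3M 50.5% of all tested probes rose and 781 of 22025 fell, and 5424 of 22025 rose with quantile normalization. Of 20 tested genes known from reactive glia, 18 rose and 0 fell at 3M (17 rose with quantile normalization). Their median log2 difference was 1.33, where that of all tested probes was 0.44. They ranged from Tgm2 (0.23, adjusted p = 0.283) to Lgals3 (2.84, adjusted p = 5.66e-05), a galectin that binds surface glycans. Timp1, an inhibitor of matrix metalloproteinases, rose by 2.80 (adjusted p = 0.000488), Serping1, which inhibits complement C1, by 2.17 (1.32e-05) and Lcn2, an iron-carrier protein of injured tissue, by 1.46 (3.96e-05). Stat3, the transcription factor through which cytokines act on glia, was not called (0.39, adjusted p = 0.109). At 1M 0 of the 20 were called by limma and 1 had an unadjusted p under 0.05. The study chose some of these genes on the same retinas, so the list is no independent evidence of direction.

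At 3M 50.5% of all tested probes rose and 781 of 22025 fell. Among 6 other intermediate filament genes and linkers tested, 2 rose and 0 fell at 3M with a median of 0.39, below that of all tested probes (0.44). Those called were Plec, the linker that ties filaments to the cell cortex (0.99, adjusted p = 0.000118), and Nefm, a neurofilament (0.54, adjusted p = 0.0299), whereas Ina, another neuronal filament, had the smallest difference (0.21, adjusted p = 0.403). With quantile normalization 1 of the 6 was called, Plec, at 0.90, a value close to that of Gfap. Of 12 tested ligands and partners of Cd44, 3 rose and 2 fell, where 50.5% of all tested probes rose and 781 of 22025 fell. Their median was 0.11. Cd74, which pairs with Cd44 as the receptor for a cytokine, rose by 1.36 (adjusted p = 0.000127). Has3, which makes hyaluronan, rose by 0.71 (adjusted p = 0.00245, and 0.0588 with quantile normalization), and Mmp2, a matrix metalloproteinase, by 0.55 (adjusted p = 0.00327). Mmp14, which cleaves Cd44, fell by 0.99 (adjusted p = 0.0140) and Adam17, another protease, fell by 0.33 (adjusted p = 0.0496). Spp1, a ligand, differed by less than 0.01 (adjusted p = 0.991). With quantile normalization 4 of these 12 genes rose and 2 fell. Has2 (0.84, adjusted p = 0.000276) and Mmp9 (0.80, adjusted p = 0.0304) were called only with that normalization. Of 4 tested partners of Cd24, the adhesion molecule L1cam rose by 0.76 (adjusted p = 0.0129) and the kinase Lyn by 0.43 (adjusted p = 0.0231). Neither was called with quantile normalization (0.28, adjusted p = 0.309, and 0.04, adjusted p = 0.869). The resting markers of Mueller glia gave 3 of 6 called higher (median 0.54) and those of astrocytes 3 of 5 (median 0.66), near the 50.5% of all tested probes, with 1 and 2 called with quantile normalization, respectively. The summed scaled intensity of the astrocyte probes did not overlap at 3M (37.4 to 90.8 in control, 92.0 to 131.5 in STZ). It did at 1M (95.3 to 138.7 and 92.0 to 139.6). The Mueller glia sum did not overlap at 1M (165.4 to 186.3 in control, 197.8 to 295.1 in STZ). It did at 3M (58.0 to 161.3 and 139.6 to 198.2).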

How the data were processed

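The authors hybridized retinal cRNA to CodeLink arrays and deposited 2 linear values per probe, the intensity after subtraction of local background and that intensity normalized within its array. Here the former was divided by the array's median over 33849 rat probes, raised to 0.01 where lower, and put on a log2 scale. A probe was tested if its median over the 24 arrays exceeded the 35th percentile (0.554) with at least 4 values per group. The software's flags were not used.

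Groups were compared in 1 model of 4 groups with limma 3.58.1 in R 4.3.3, with Benjamini-Hochberg adjustment over 22025 probes, and called at an adjusted p under 0.05 and 1.2-fold. The test in the methods (unequal variances, p under 0.01 and 1.2-fold) was an alternative, as were other normalizations, filters, covariates, a replicate block and leaving out each array. Correlations and ranks used exact permutation tests (scipy 1.17.1). The number of arrays limits the precision. Median intensities before scaling were 284, 194, 232 and 148 in 1M Control, 1M STZ, 3M Control and 3M STZ.

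Each gene had 1 probe. All probes of the 5 genes, the 3 most similar named probes of each, and the ends and selected members of each list are named. Genes and lists, including the lists of reactive glia genes, partners and cell type markers, were chosen with earlier results of these data known. Tested markers of rods, ganglion cells, endothelium, pigment epithelium and blood were also examined. At 3M 1 of 4, 1 of 3, 3 of 5, 0 of 2 and 0 of 1 were called higher, and 0 lower. Of all tested probes 50.5% were called higher and 781 of 22025 lower. With quantile normalization 0 rod genes were called higher and 2 lower, where 5424 and 1524 of 22025 probes were. Coordinates and sequences are from RefSeq (GRCr8), in which 4675 of 5469 accessions were found. The probes' own sequences and the protein sequences were not used here.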

Additional observations from a re-analysis of the deposited data

Results flagged for a closer look

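In 16 sets of 6 log2 levels (4 genes in 4 groups), 2 had a rat far from the others by Dixon's test, which chance gives in about 1 of 20 sets. Both were in Gfap. The first was 3M Control 2, the highest of its group at a scaled intensity of 3.13, and the second was 3M STZ 4, the lowest of its group at 1.99. The effect of STZ differed between 3 months and 1 month, by limma's test of the difference, by 1.15 for Gfap, 1.49 for Vim, 1.67 for Cd44 and 2.83 for Cd24 on the log2 scale. The value for Gfap is uncertain, since all its 1M levels lay under the bacterial limit of 1.14. Its call was lost in 16 of the 24 fits with 1 array left out.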

How the results depend on the processing

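The direction of the 3M difference was the same under all alternatives for all 4 genes, with 1 array left out too, when the log2 difference ranged from 1.204 to 1.498 for Gfap, 1.32 to 1.69 for Vim, 1.17 to 1.43 for Cd44 and 1.57 to 2.14 for Cd24 and the 4 genes remained called. With array spread as a covariate it was 1.00, 1.204, 1.00 and 0.96, respectively, and 0 were called, as were 0 of 22025 tested probes. Cd24 (1.90) was not called by the methods' test after adjustment. The filter that asks for every array above the limit kept 2 genes, both called, as Gfap and Cd24 were not tested. At 1M 0 genes were called under any alternative, and Vim, near 0, changed sign with quantile normalization (-0.048), with array brightness as a covariate (-0.13) and with 1 array left out (-0.078 to 0.16). Without 1M STZ 2 the fall in rank at 1M reached p = 0.0433 for Cd44 (-7.92) and p = 0.0108 for Cd24 (-17.9), unadjusted exact permutation tests. The ranges of the rank difference with 1 array left out were 0.07 to 4.78 for Gfap, -0.12 to 0.021 for Vim, -7.92 to -3.36 for Cd44 and -17.9 to -4.88 for Cd24 at 1M, and 12.2 to 18.7, 0.45 to 0.60, 10.2 to 15.8 and 10.8 to 19.7 at 3M, where Gfap passed in 6 of 12.

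The difference of the effects lost its call for Gfap with the replicate number as a block (1.15, adjusted p = 0.0593), without the filter on dim probes (1.15, 0.0602), with array brightness (1.11, 0.0781), with quantile normalization (0.80) and with array spread (0.85); Vim lost it with quantile normalization (0.78) and array spread (1.15), and Cd44 (1.33) and Cd24 (1.87) with array spread. It was called in 2 genes with quantile normalization, 2 where every array had to pass and 0 with array spread. With array spread 0 of 22025 tested probes were called. With 1 array left out it ranged from 0.94 to 1.36 for Gfap, 1.27 to 1.64 for Vim, 1.502 to 1.86 for Cd44 and 2.22 to 3.27 for Cd24, with 2 to 4 genes called; without 3M STZ 6, Gfap and Cd24 (2.67, adjusted p = 0.0503) were not. The replicate block changed no other call. Same-numbered rats did not pair: their correlations ran from -0.17 to 0.25 at 1M and -0.24 to 0.22 at 3M, and the best partner of a rat had its own number in 2 of 6 and 0 of 6.

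Between the controls, Cd24 was not called with quantile normalization (-0.73), the 5th percentile subtracted (-0.91), no filter (-1.19), array weights (-0.75) or brightness (-1.20) and was 1.31 with array spread; Gfap (2.16) and Vim (-0.55) lost the call with array spread, and Cd44 gained it with quantile normalization (0.55). In all, 1 gene was called where every array had to pass and 0 with array spread. With 1 array left out, Gfap ranged from 1.18 to 1.48, Vim from -1.59 to -1.22, Cd44 from 0.06 to 0.32 and Cd24 from -1.44 to -0.87, Cd24 being called in 6 of 24, so 2 or 3 genes were called. The causes were not tested. The mean of several probes per gene was not run, since each gene had 1, and the filter by bacterial probes gave no value for Gfap. Gfap at 1M was dim, below the level of that filter (1.14).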
